A study of Mus musculus with 30 samples.

Results

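The mitochondrial solute carriers of family 25 were described here in the quadriceps muscle of mice on a low fat (LF) or a high fat (HF) diet. The members were all entries of the expression table whose mouse gene symbol was Slc25a followed by a number, with Slc25a20 left out, which gave 43 genes of 16475 measured. The study measured total RNA of 30 male mice on Affymetrix arrays, 1 mouse per array, to ask how a diet that brings obesity and insulin resistance changes the muscle transcriptome. The strain was C57BL/6J, which the sample labels spell C56BL/6J. All mice were moved at 9 weeks of age to the LF diet for a run-in of 3 weeks. A group of 10 mice was killed at the end of it, at 12 weeks of age (LF day 0). The others were assigned at random to LF or HF diet and killed after 56 days, at 20 weeks of age, giving 10 mice at LF day 56 and 10 at HF day 56. HF day 56 against LF day 56 compares diets at equal age, LF day 56 against LF day 0 compares 56 days on the LF diet, in which age and time on diet cannot be told apart, and HF day 56 against LF day 0 holds both diet and time. The 3 comparisons share groups pairwise, so their values are set side by side and not counted as separate evidence.

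Family 25 proteins sit mostly in the inner mitochondrial membrane and exchange one metabolite for another between the cytosol and the matrix. They bring in ADP and phosphate and let out ATP, pass the carbon and electrons of the malate-aspartate shuttle, and supply the matrix with amino acids, cofactors, nucleotides and iron. In muscle, the ADP/ATP carrier ANT1 (Slc25a4) is among the abundant proteins of the mitochondrion, and the mitoferrins Slc25a28 and Slc25a37 deliver iron for haem and iron-sulphur clusters.

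Of the 43 carriers, 1 passed the test in any comparison: Slc25a28, mitoferrin 2, an iron carrier found in many tissues, rose from LF day 0 to day 56 on either diet. With limma and Benjamini-Hochberg adjustment over all 16475 entries, at an adjusted p under 0.05, 1 member was higher and 0 lower at LF day 56 than at LF day 0, where 0.85% of all entries passed. The same gene was the 1 member higher at HF day 56 than at LF day 0, with 0 lower, where 1.59% of all entries passed. A single gene is 2.33% of the members, so the count itself lies close to the background, and the result is about that gene and not about the family. Between HF and LF diet at day 56, limma called 0 members, and 4 of the 43 had an unadjusted p under 0.05. In that comparison limma called 4 entries of the whole table, 0.0243%, and 841 (5.1%) had an unadjusted p under 0.05. At that unadjusted level 3 members (6.98%) stood at LF day 56 against LF day 0, beside 10.1% of all entries, and 8 (18.6%) at HF day 56 against LF day 0, beside 11% of all entries. The members' median difference between the diets was 0.01 on the log2 scale, against 0 for all entries. A difference of less than 0.1 was found for 27 of the 43 (62.8%), beside 76.2% of all entries. Among the members the lower share lay with those near background. Of the 22 with signal over 20 in 5 or more arrays, 18 (81.8%) differed by less than 0.1, beside 75.2% of entries chosen alike. Of the other 21, near background, 9 (42.9%) did. Over the whole table entries near background had no lower share, since it was 76.2% of all and 75.2% of those above. Why these members had a lower share was not tested.

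The promoter windows of 3 carriers are shown because the results turn on them: Slc25a28, which rose with time, Slc25a34, which had the largest difference between the diets, and Slc25a1, which varied with adipocyte markers. The sequences are RefSeq's for GRCm38.p6, 250 bases before to 50 bases after the gene's start, 5′ to 3′ on the minus strand, at chr19:43674832-43675131, chr4:141623785-141624084 and chr16:17928170-17928469 in the order printed. Capitals mark matches, on either strand, to any of 5 motifs searched, which are spelled out with their frequencies after the sequences.
Slc25a28: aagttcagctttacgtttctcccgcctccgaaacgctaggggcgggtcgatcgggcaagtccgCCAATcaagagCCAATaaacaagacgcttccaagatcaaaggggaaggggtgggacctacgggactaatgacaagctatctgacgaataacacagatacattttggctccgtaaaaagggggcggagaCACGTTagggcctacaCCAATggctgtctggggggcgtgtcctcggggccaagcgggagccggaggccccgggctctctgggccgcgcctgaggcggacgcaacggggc
Slc25a34: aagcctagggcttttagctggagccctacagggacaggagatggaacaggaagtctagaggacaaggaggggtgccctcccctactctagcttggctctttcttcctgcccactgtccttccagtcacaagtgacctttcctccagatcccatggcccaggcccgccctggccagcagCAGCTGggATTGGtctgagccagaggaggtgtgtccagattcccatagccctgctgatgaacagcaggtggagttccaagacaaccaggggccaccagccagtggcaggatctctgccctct
Slc25a1: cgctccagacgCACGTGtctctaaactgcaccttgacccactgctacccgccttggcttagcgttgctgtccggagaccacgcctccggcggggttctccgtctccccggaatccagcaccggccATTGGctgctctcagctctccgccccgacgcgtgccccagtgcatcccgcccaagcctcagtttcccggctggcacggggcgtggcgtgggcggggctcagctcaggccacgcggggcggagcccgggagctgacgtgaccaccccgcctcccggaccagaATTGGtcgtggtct
The Slc25a28 window held 1 match to CACGTT and 3 to CCAAT, the box that the factor NF-Y binds. CACGTT was in 4.68% of all 32851 mouse promoter windows of this length and in 4.88% of the 41 windows of the 32 members with an entry, those of Slc25a28 and Slc25a30. The Slc25a34 window held 1 match to CAGCTG, a core bound by the muscle factor MyoD, and 1 to the NF-Y box on the other strand. CAGCTG was in 16.3% of all windows and 12.2% of the members' windows. The Slc25a1 window held 1 match to CACGTG, a core bound by factors such as USF, and 2 to the NF-Y box on the other strand. CACGTG was in 7.15% of all windows and in 19.5% of the members' windows, which came from 7 genes (Slc25a1, Slc25a13, Slc25a14, Slc25a15, Slc25a31, Slc25a33 and Slc25a36). The NF-Y box was in 37.4% of all windows and 51.2% of the members' windows. CCGGAAG, a core bound by ETS factors and not in the 3 windows printed, was in 8.86% and 14.6%. No matches overlap in the windows printed, and a match describes the sequence only.

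The table gave 1 linear intensity per gene and array, and 22 of the 43 members were above an intensity of 20 on 5 arrays or more, while the other 21 were read as near background. Between 6334 and 6563 entries exceeded 20 on an array, and no 2 arrays were identical. Muscle fibre markers were all expressed, with a mean log2 intensity between 13.89 and 14.05 on every array, as the tissue label says. Signals of the 5′ and 3′ ends of control RNAs parted the arrays into a larger set of 21 and a smaller set of 9, with 7 and 3 arrays in each group. S100a8, a neutrophil gene, exceeded 100 on 7 arrays at LF day 0, 4 at LF day 56 and 6 at HF day 56. RNA came from whole muscle, so fewer cells of a type and less RNA per cell cannot be told apart.

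**Figure D1:**
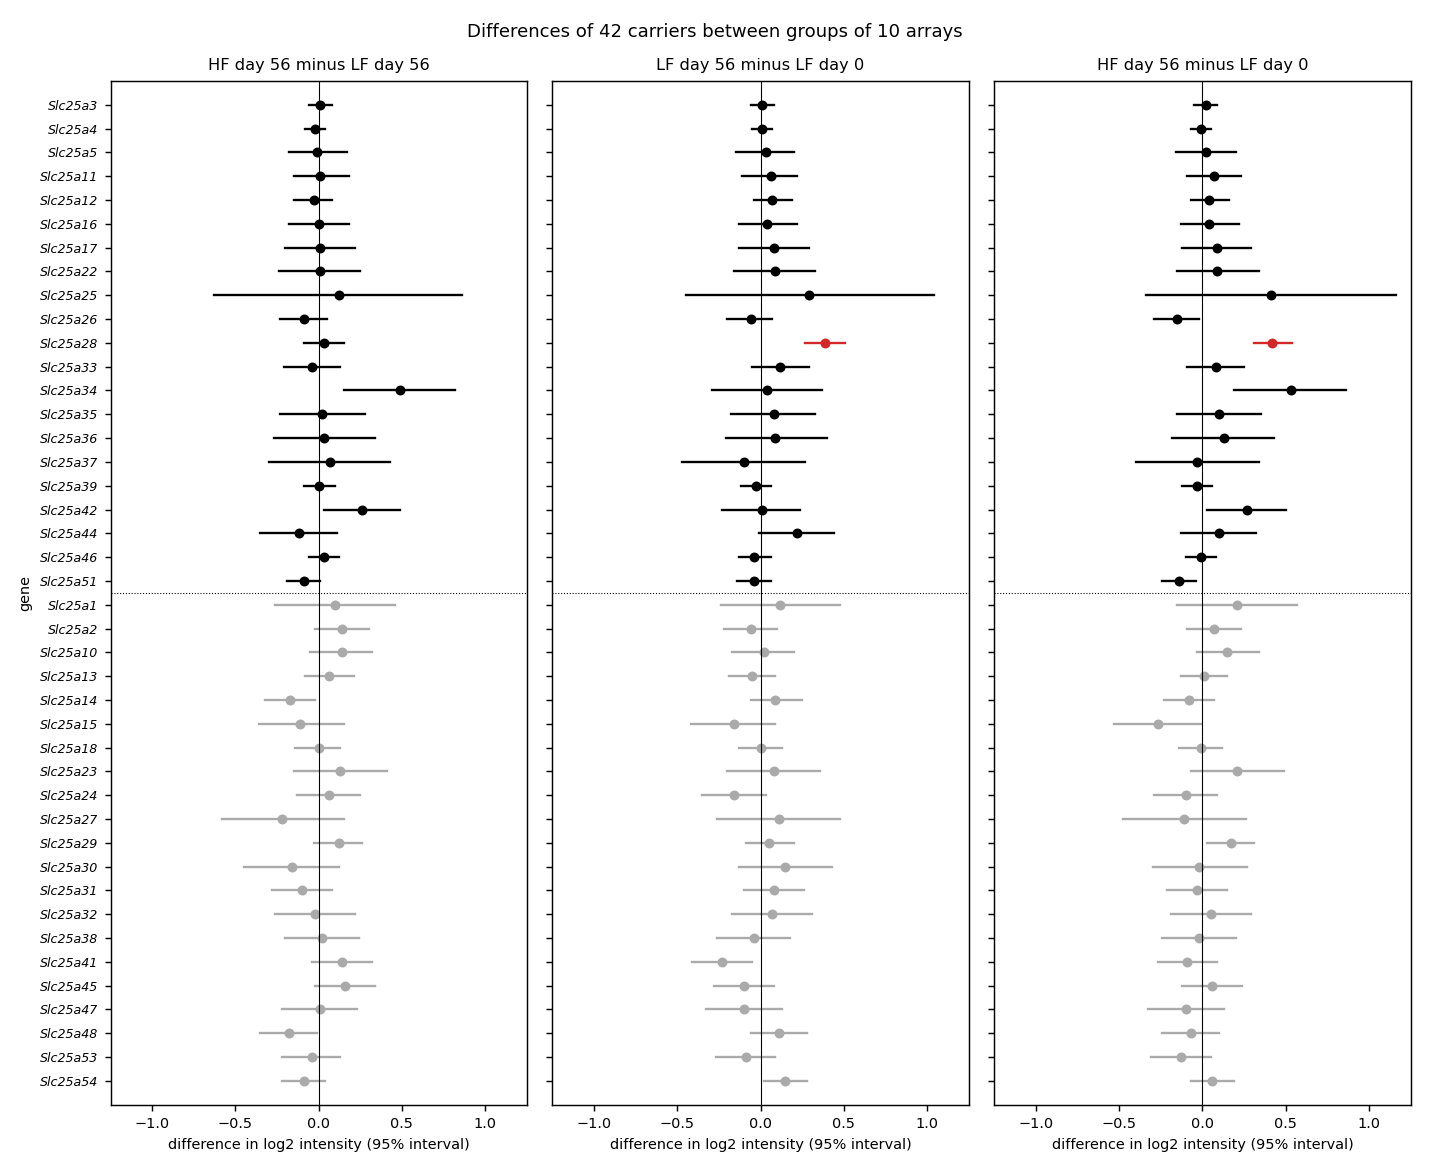
Differences in log2 intensity of 42 of the 43 carriers in each of the 3 comparisons (points, with 95% intervals from limma, 10 arrays per group). Genes over the dotted line were above an intensity of 20 on 5 arrays or more, and those in grey under it were not. Slc25a28, in red, is the gene that passed the test, at 0.39 and 0.42 against LF day 0 and 0.03 between the diets.

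Slc25a28 ranged from 198.7 to 265.8 at LF day 0, with a median intensity of 231. At LF day 56 it ranged from 272.0 to 358.9, with a median of 301. At HF day 56 it ranged from 288.0 to 338.0, with a median of 303. Every array of both day 56 groups was therefore above every array of LF day 0, while the day 56 groups overlapped almost entirely. The mean log2 intensity was 7.85 ± 0.154 (SD, n = 10) at LF day 0, 8.24 ± 0.123 at LF day 56 and 8.27 ± 0.0788 at HF day 56. The difference between LF day 56 and LF day 0 was 0.39 ± 0.06 (SE; 95% interval 0.27 to 0.51), or 1.31-fold, with an adjusted p of 0.000255 (limma). Between HF day 56 and LF day 0 it was 0.42 ± 0.06 (0.31 to 0.54), or 1.34-fold, with an adjusted p of 2.93e-05. Between the diets at day 56 it was 0.03 ± 0.06, with a 95% interval from -0.09 to 0.15 and an adjusted p of 0.998. Groups without overlap were rare in the table: 0.121% of entries at LF day 56 against LF day 0, 0.194% at HF day 56 against LF day 0, and 0.0121% between the diets. Among the members Slc25a28 was the 1 such gene in each comparison with LF day 0, and there was none between the diets.

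Other cell markers moved with the same groups. All 8 measured markers of tendon, cartilage and bone were lower at LF day 56 than at LF day 0 (median -0.84). Limma called all 8, beside 0.85% of all entries. All 8 were also lower at HF day 56 than at LF day 0 (median -0.7), where limma called 4, beside 1.59% of all entries. Their mean log2 level ranged from 6.36 to 7.98 at LF day 0. It ranged from 5.92 to 6.53 at LF day 56 and from 5.77 to 6.98 at HF day 56. Of 8 endothelial markers, limma called 1 (Cldn5) as lower in each comparison with LF day 0. All 8 were lower at LF day 56 (median -0.24), and 7 of 8 at HF day 56 (median -0.13). The list's level ranged from 6.33 to 6.89, from 6.12 to 6.60 and from 6.24 to 6.68 in the same order. With the tendon, cartilage and bone level as a covariate, Slc25a28 differed by 0.43 and 0.45 between day 0 and day 56 on LF and HF diet (adjusted p = 0.0462 and 0.00193, limma). With the endothelial level it differed by 0.37 and 0.41 (adjusted p = 0.0232 and 0.000356). Of 7 adipocyte markers, limma called 4 as higher at HF day 56 than at LF day 0 (Adipoq, Lep, Cidec and Retn). The list's median there was 0.82, with 6 of 7 higher, while Cfd differed by -0.45 (adjusted p = 0.455, limma). With that list's level as a covariate Slc25a28 differed by 0.39 and 0.42 (adjusted p = 0.000931 and 0.0058).

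The size of the Slc25a28 difference was also close within the array sets. In the larger set alone it was 0.38 on LF diet and 0.44 on HF diet (adjusted p = 0.0314 and 0.00357, limma). In the smaller set, with 3 arrays per group, it was 0.42 and 0.39 and did not pass (adjusted p = 0.204 and 0.312). Without the arrays with S100a8 above 100 it was 0.38 and 0.40 and did not pass (adjusted p = 0.124 and 0.241), with 3, 6 and 4 arrays left in the groups. Leaving out any 1 array gave 0.36 to 0.41 on LF diet and 0.40 to 0.45 on HF diet, past the test in all 30 fits.

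**Figure D2:**
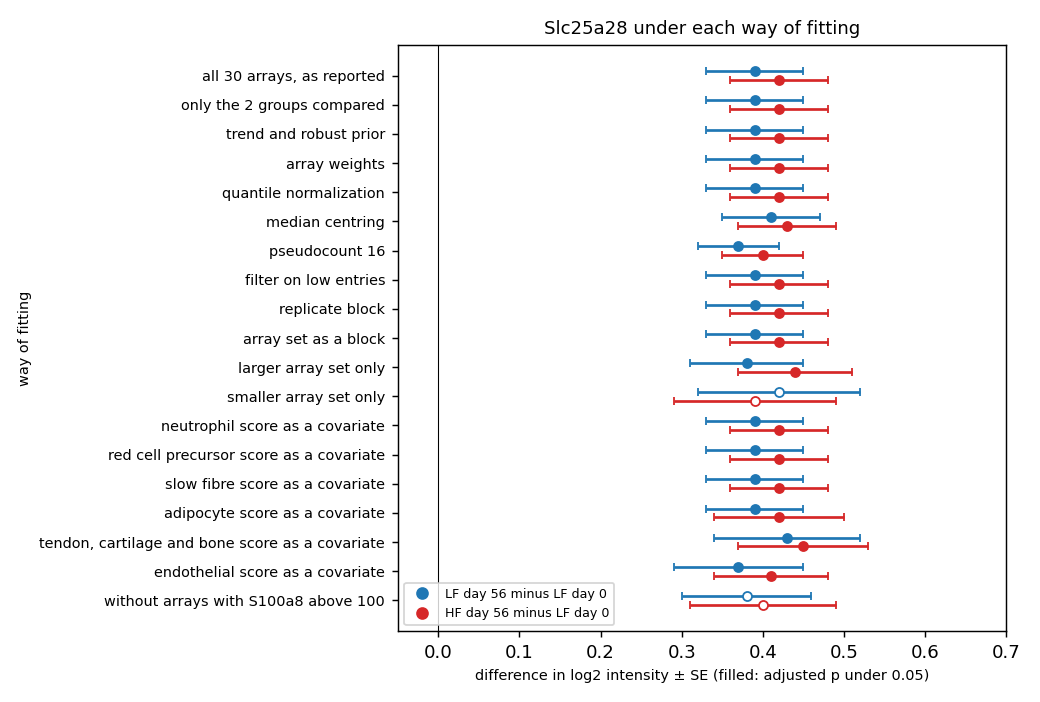
Difference in log2 intensity of Slc25a28 (points, with SE) between day 56 and LF day 0 on LF (blue) and HF (red) diet under the reported fit and 18 other ways of fitting; filled points passed an adjusted p of 0.05. All lie between 0.37 and 0.45, and the open points are the smaller array set and the fit without arrays with S100a8 above 100.

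Slc25a37, mitoferrin 1, the iron carrier of red cell precursors, had no such shift. It ranged from 167.0 to 397.8 at LF day 0 (median 232), from 138.9 to 346.6 at LF day 56 (median 179) and from 144.5 to 316.4 at HF day 56 (median 229). The 3 groups overlapped over most of this range, and the differences were -0.10 and -0.03 against LF day 0 and 0.07 between the diets, each with an SE of 0.18. They were not alike in the 2 array sets. Against LF day 0 they were 0.15 and 0.10 in the larger set and -0.67 and -0.34 in the smaller one. Between the diets they were -0.05 and 0.33, and none passed the test. Slc25a37 varied instead with the red cell precursor markers. The mean log2 level of that list, which includes Alas2, the haem synthesis enzyme of red cell precursors, left a gap between 2.38 and 3.82 and so parted the arrays into 17 above and 13 below. Slc25a37 lay between 199.4 and 397.8 (median 262) on the 17 and between 138.9 and 191.0 (median 169) on the 13, without overlap. How many of all entries separate in the same way was not counted, so how particular this is to Slc25a37 is not known. The LF day 0 group held 7 of the 17, and 4 came from LF day 56 and 6 from HF day 56. They were also the 17 with S100a8 above 100, against 0 of the 13. In the smaller array set the list's level was 4.23 to 4.32 at LF day 0 and 2.18 to 2.35 at LF day 56. On its HF day 56 arrays the level was 2.16, 4.80 and 5.11. The array sets' unlike differences in Slc25a37 therefore came with unlike red cell precursor levels, and their cause was not tested. Of the 10 red cell precursor genes measured, 5 were under 20 on all arrays. Within the 17 arrays the slope of Slc25a37 on the list's level was 0.28 ± 0.09 and within the 13 it was 0.53 ± 0.437, neither past the test over all entries (adjusted p = 0.9 and 1, limma). Which cells carried the Slc25a37 signal was not tested. With the red cell precursor level as a covariate Slc25a37 differed by 0.03 and -0.05 from LF day 0 and by -0.08 between the diets (SE 0.08). With the neutrophil level it differed by 0.19, 0.08 and -0.11, and none of these passed. With the tendon, cartilage and bone level the differences from LF day 0 were 0.76 (adjusted p = 0.1) and 0.64 (adjusted p = 0.048, limma), the second past the test. That level hardly overlapped between LF day 0 (6.36 to 7.98) and LF day 56 (5.92 to 6.53).

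Slc25a39, the glutathione carrier, ranged from 660.1 to 834.4 over the 30 arrays, with group medians of 728, 707 and 730 in the order LF day 0, LF day 56 and HF day 56. Its difference between the diets was 0.00, with a 95% interval from -0.09 to 0.10. Slc25a38, the glycine carrier needed for haem synthesis, was under 20 on all 30 arrays.

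**Figure D3:**
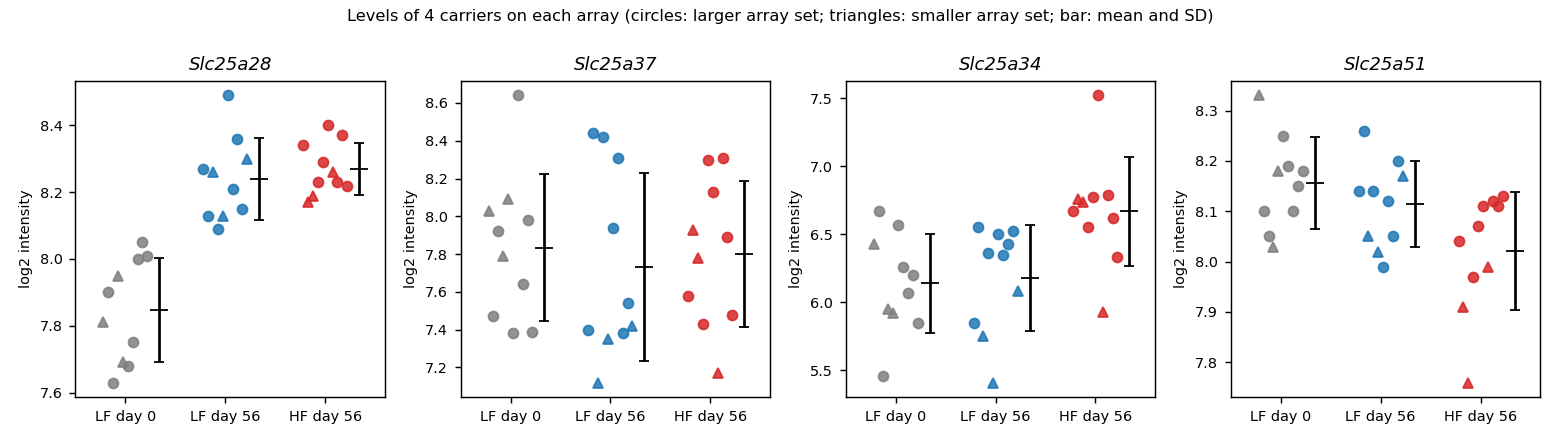
Log2 intensity of 4 carriers on each array in the 3 groups, with the group mean and SD; circles are the larger and triangles the smaller array set. Slc25a28 is higher on all 20 day 56 arrays than on any LF day 0 array, Slc25a37 covers a wide range in every group, Slc25a34 has its highest values at HF day 56, and Slc25a51 its lowest.

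Of the 9 carriers of ATP and phosphate, limma called 0 in any comparison. An unadjusted p under 0.05 was found for 2 (22.2%), both at LF day 56 against LF day 0, beside 10.1% of all entries. Slc25a4, the muscle ADP/ATP carrier, varied least of all members, with a within-group SD of 0.033 on the log2 scale. It ranged from 15775.9 to 16638 at LF day 0, from 15544.9 to 16805.9 at LF day 56 and from 15744.9 to 16584.4 at HF day 56. These ranges overlap almost wholly, and the diets differed by -0.02 ± 0.03 (95% interval -0.08 to 0.04, or 0.946-fold to 1.03-fold). Slc25a5, the ADP/ATP carrier of most tissues, ranged from 337.1 to 466.5, from 364.0 to 498.4 and from 292.7 to 555.6 in the same order. Its widest range was at HF day 56, around medians of 432, 434 and 435, and the diets differed by -0.01 (95% interval -0.18 to 0.17). Slc25a3, the phosphate carrier that also moves copper, had medians of 6240, 6270 and 6270 and differed by 0.01 between the diets (-0.06 to 0.08).

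Of the ATP-Mg/phosphate carriers, Slc25a25 was the most variable member, with a within-group SD of 0.874. It ranged from 6.5 to 61.4, from 8.5 to 37.6 and from 8.9 to 70.8, so that single arrays of every group lay near background and others well above it. It exceeded 20 on 14 arrays and differed by 0.12 ± 0.37 between the diets. Slc25a23, Slc25a24, Slc25a41, Slc25a54 and the testis ADP/ATP carrier Slc25a31 were under 20 on all arrays. Among these, Slc25a41 differed by -0.23, Slc25a54 by 0.15 and Slc25a24 by -0.16 between LF day 56 and LF day 0, none past the test (adjusted p = 0.318, 0.401 and 0.592, limma), and the sign for Slc25a54 turned without the arrays with S100a8 above 100.

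Of the 5 carriers of carboxylates and reducing equivalents, limma called 0 in any comparison, and 0 had an unadjusted p under 0.05. Slc25a11, the malate/oxoglutarate carrier, ranged from 1343.8 to 2132.7 at LF day 0, from 1625.6 to 2141.9 at LF day 56 and from 1498.9 to 2170.2 at HF day 56, and the diets differed by 0.01 (95% interval -0.15 to 0.18). Slc25a12, the aspartate/glutamate carrier aralar, ranged from 3726.9 to 4821.9, from 3934.7 to 5089.4 and from 3882.4 to 4960.9, and differed by -0.03 (-0.15 to 0.08). Both overlapped across groups, and both were higher in the smaller array set than in the larger one, by 0.27 and 0.19. Slc25a13, the other aspartate/glutamate carrier (citrin), stayed between 2.8 and 4.4, near background.

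Slc25a1, the citrate carrier that supplies the cytosol with acetyl groups for fat synthesis, exceeded 20 on only 2 of the 30 arrays, with 31.0 at LF day 56 and 27.7 at HF day 56. Its ranges were 8.8 to 16.2, 10.5 to 31.0 and 9.0 to 27.7, and the groups differed by 0.10 to 0.21 without passing the test. It followed the adipocyte markers: within groups and array sets, log2 Slc25a1 rose by 0.76 ± 0.127 (SE) per log2 unit of the adipocyte level (adjusted p = 0.000906, limma), a slope that 0.467% of all entries passed. That level ranged from 7.71 to 8.61 at LF day 0, from 8.09 to 8.99 at LF day 56 and from 7.81 to 9.81 at HF day 56. Leaving out any 1 array kept the slope between 0.64 and 0.81 and past the test in 30 of 30 fits. Without the 2 arrays farthest from the median level, replicates 9 and 10 of HF day 56, it was 0.70 and missed the threshold (adjusted p = 0.0749), so the call rests on those arrays. Slc25a1 was the 1 of 43 members called, and 3 (6.98%) had an unadjusted p under 0.05, beside 6.89% of all entries, the others being Slc25a10, the dicarboxylate carrier (0.31, adjusted p = 0.0864), and Slc25a23 (0.42, adjusted p = 0.24). Slc25a10 and Slc25a23 lay near background on all 30 arrays, and Slc25a1 on all but 2.

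**Figure D4:**
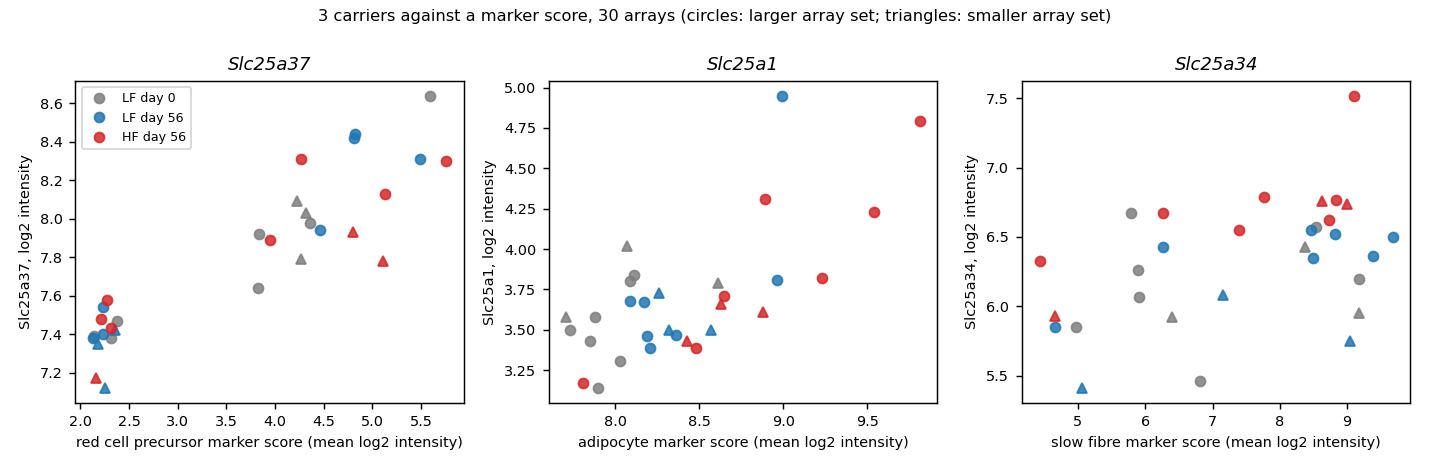
Log2 intensity of 3 carriers on each of the 30 arrays against the mean log2 level of a marker list; colours are the groups, circles the larger and triangles the smaller array set. The red cell precursor level has a gap between 2.38 and 3.82, and Slc25a37 is at most 191.0 below it and at least 199.4 above. The arrays with Slc25a1 above 20 have adipocyte levels of 8.99 and 9.81, and Slc25a34 spreads widely along the slow fibre level.

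Slc25a34, a carrier not placed in a group by role here, had the largest difference between the diets and did not pass the test. It ranged from 44.1 to 101.5 at LF day 0 (median 70.4), from 42.4 to 93.8 at LF day 56 (median 81.8) and from 60.8 to 183.3 at HF day 56 (median 104). The highest HF arrays lay above every LF array, but the groups overlapped, and 9 of 10 HF arrays were above the LF day 56 mean. The difference was 0.49 ± 0.16 between the diets (95% interval 0.15 to 0.82, unadjusted p = 0.00563, adjusted p = 0.639, limma) and 0.53 ± 0.16 between HF day 56 and LF day 0 (adjusted p = 0.113). Without replicate 2 of HF day 56, the array at 183.3, they were 0.39 and 0.43. Without replicate 5 of HF day 56, the lowest of its group, the difference from LF day 0 was 0.61 and passed (adjusted p = 0.0393). Without the arrays with S100a8 above 100 it was 0.36 between the diets and 0.01 against LF day 0. Between the diets it was 0.38 in the larger array set and 0.73 in the smaller, and between HF day 56 and LF day 0 it was 0.59 and 0.37. Across the arrays Slc25a34 had a slope of 0.12 ± 0.031 on the slow fibre marker level (unadjusted p = 0.000448, adjusted p = 0.0767), which did not pass over all entries. With 1 array left out it was 0.11 to 0.13, with an adjusted p between 0.0253 and 0.23, and passed in 4 of 30 fits. The slow fibre slope called 0 of 43 members and 0.467% of all entries, with 7 members (16.3%) at an unadjusted p under 0.05, beside 10.6% of all entries. That level ranged from 4.97 to 9.18, from 4.66 to 9.68 and from 4.43 to 9.11 in the 3 groups, a wide range of slow fibre RNA within each.

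Of the 5 other members not placed in a group by role here, Slc25a35 exceeded 20 on 12 arrays, and Slc25a45, Slc25a47, Slc25a48 and Slc25a53 on none. Slc25a48 differed by -0.18 between the diets (adjusted p = 0.944).

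Among the cofactor and nucleotide carriers limma called 0 of 9 in any comparison. An unadjusted p under 0.05 was found for 1, 0 and 4 in the comparisons of diets, of LF day 56 and of HF day 56 with LF day 0. These are 11.1%, 0% and 44.4% of the 9, beside 5.1%, 10.1% and 11% of all entries. Slc25a42, the coenzyme A carrier, ranged from 33.4 to 53.3, from 28.2 to 49.7 and from 37.4 to 82.1 at LF day 0, LF day 56 and HF day 56. It differed by 0.26 ± 0.11 between the diets (adjusted p = 0.941) and by 0.27 between HF day 56 and LF day 0 (adjusted p = 0.35, limma). Its highest HF array was again replicate 2, and without it the differences were 0.17 and 0.18. Between HF day 56 and LF day 0 it was 0.35 in the larger array set and 0.07 in the smaller. Slc25a51, the NAD carrier, ranged from 261.2 to 321.1 at LF day 0 (median 287), from 254.5 to 306.4 at LF day 56 (median 280) and from 216.4 to 279.2 at HF day 56 (median 265). The groups overlapped, with the lowest arrays at HF day 56, and HF day 56 differed from LF day 0 by -0.14 ± 0.05 with 10 of 10 arrays below the LF day 0 mean (unadjusted p = 0.00926, adjusted p = 0.209). That difference was -0.07 in the larger array set (adjusted p = 0.731) and -0.29 in the smaller (adjusted p = 0.517). Slc25a26, the S-adenosylmethionine carrier, differed by -0.15 in that comparison (adjusted p = 0.371). Slc25a16, linked to coenzyme A, ranged from 293.2 to 517.4 over all arrays and the pyrimidine nucleotide carrier Slc25a33 from 210.6 to 370.6. The peroxisomal cofactor carrier Slc25a17 ranged from 24.9 to 46.3 and Slc25a36, the other pyrimidine nucleotide carrier, from 16.3 to 47.3, close above background. Slc25a32, the folate and flavin carrier, exceeded 20 on 1 array.

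Of the 7 amino acid carriers, limma called 0 in any comparison. An unadjusted p under 0.05 was found for 2 (28.6%), both at HF day 56 against LF day 0, beside 11% of all entries. Slc25a44, the carrier of branched-chain amino acids, ranged from 36.5 to 69.4, from 46.0 to 78.4 and from 43.5 to 71.2. LF day 56 differed from LF day 0 by 0.22 ± 0.11 (adjusted p = 0.527, limma), and the smaller array set was lower than the larger one by a log2 difference of -0.42, so the sets differed by more than the groups. That difference between groups turned negative with the tendon or the endothelial level as a covariate. Slc25a22, a glutamate carrier, exceeded 20 on all 30 arrays and differed by 0.01 between the diets. The ornithine carriers Slc25a2 and Slc25a15, the glutamate carrier Slc25a18 and Slc25a29, which carries basic amino acids, did not exceed 20 on any array. Slc25a29 differed by 0.17 and Slc25a15 by -0.27 between HF day 56 and LF day 0, neither past the test (adjusted p = 0.304 and 0.418), and the sign for Slc25a29 turned without the arrays with S100a8 above 100.

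Of the uncoupling protein relatives, Slc25a14, Slc25a27 and Slc25a30, limma called 0 in any comparison. An unadjusted p under 0.05 was found for 1 (33.3%), Slc25a14 between the diets, beside 5.1% of all entries. These relatives differed between the diets by -0.17, -0.22 and -0.16, near background. Slc25a46, an outer membrane protein that shapes mitochondria, exceeded 20 on all 30 arrays and differed by 0.03. In all, 11 of the 43 members differed between the array sets at an adjusted p under 0.05 (limma with group in the fit), against 23.1% of all entries. Slc25a28 was not among the 11 (-0.05).

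Proteins of the family under other symbols and proteins that work with the carriers were read from lists. Of Ucp1, Ucp2, Ucp3, Mtch1 and Mtch2, limma called 0 of 5 in any comparison. In the diet comparison 1 (20%) had an unadjusted p under 0.05, beside 5.1% of all entries. At LF day 56 against LF day 0 it was also 1 (20%), beside 10.1% of all entries. At HF day 56 against LF day 0 it was 0, beside 11%. Ucp3, the muscle uncoupling protein, ranged from 648.7 to 1963.4 at LF day 0, from 582.7 to 1643.1 at LF day 56 and from 405.5 to 1818.2 at HF day 56, a wide range in every group. It differed by -0.37 ± 0.26 between HF day 56 and LF day 0 (adjusted p = 0.671), and Mtch1 by -0.10 (adjusted p = 0.711, limma). Ucp2, found in many cell types including immune cells, differed by 0.43 between the diets (adjusted p = 0.978) and by -0.41 between LF day 56 and LF day 0 (adjusted p = 0.529). Ucp1, the brown fat uncoupling protein, differed by -1.0 and 1.06 in the same comparisons (adjusted p = 0.941 and 0.395), and exceeded 20 on 1 array, LF day 56 replicate 6 at 228.5, beside group medians of 4, 4.7 and 3.95. Without that array it differed by -0.46 and 0.53 (adjusted p = 0.977 and 0.359).

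Of 20 other transport proteins of the mitochondrial membranes, limma called 1 (5%) as lower and 0 as higher at HF day 56 than at LF day 0. There it called 1.59% of all entries. It called 0 in each of the other comparisons. An unadjusted p under 0.05 was found for 1 (5%) between the diets and 1 (5%) at LF day 56 against LF day 0. The shares of all entries were 5.1% and 10.1%. At HF day 56 against LF day 0 it was found for 3 (15%), beside 11% of all entries. The gene called was Abcb6, a porphyrin transporter, lower by 0.35 ± 0.07 on the log2 scale (adjusted p = 0.00623, limma). From LF day 0 to LF day 56 it differed by -0.24 (adjusted p = 0.127). The medians of this list were 0.00, -0.04 and -0.05 in the comparisons of diets, of LF day 56 with LF day 0 and of HF day 56 with LF day 0, against 0 for all entries. The sideroflexins Sfxn4 and Sfxn5 did not exceed 20 on any array. Sfxn4 differed by -0.37 between the diets and by 0.21 at LF day 56 against LF day 0 (adjusted p = 0.494 and 0.519), and Sfxn5 by -0.17 between the diets and -0.26 at HF day 56 against LF day 0 (adjusted p = 0.991 and 0.225).

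Of 14 proteins that import the carriers, limma called 0 in any comparison. An unadjusted p under 0.05 was found for 1 (7.14%), at LF day 56 against LF day 0, beside 10.1% of all entries. That gene was Tomm40l, an outer membrane import protein, which differed by -0.25 there (adjusted p = 0.182), by -0.15 at HF day 56 against LF day 0 (adjusted p = 0.53) and by 0.10 between the diets (adjusted p = 0.998). The other genes among the 2 of smallest p in a comparison were Tomm40, the import pore (0.14 at LF day 56 against LF day 0, adjusted p = 0.528), Tomm5 (-0.19 at HF day 56 against LF day 0, adjusted p = 0.693) and Timm29 (-0.12 between the diets, adjusted p = 0.998). The list's medians were -0.03, 0.00 and -0.03. Of 13 enzymes that work with the carriers, such as malate dehydrogenase and citrate synthase, limma called 0, with medians of -0.02, 0.01 and -0.02. An unadjusted p under 0.05 was found for 1, 0 and 2 of them (7.69%, 0% and 15.4%), beside 5.1%, 10.1% and 11% of all entries. Acly, the ATP citrate lyase, differed by -0.31 between the diets (adjusted p = 0.941, limma). Gpd2, the mitochondrial glycerol phosphate dehydrogenase, differed by -0.11 there (adjusted p = 0.984) and by -0.18 at HF day 56 against LF day 0 (adjusted p = 0.113). Ppif, cyclophilin D, differed by -0.15 in the latter (adjusted p = 0.388). At LF day 56 against LF day 0 the enzyme of smallest p was Ckmt1, a mitochondrial creatine kinase near background (0.10, adjusted p = 0.621).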

How the data were processed

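Quadriceps RNA of 30 mice was measured on 1 Affymetrix array each. In the deposited table each gene has 1 linear intensity on each array. The authors used GCRMA, per the submitters' processing notes, and no version is named. Values ran from 1.2 to 30599. The table's 16539 rows include 64 control probe sets, which were not tested. The remaining 16475 were tested on log2 intensity with a pseudocount of 0. Of these, 16257 were named through the Entrez gene number in the row identifier and 218 were not.

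Groups came from the labels. A single limma fit (version 3.58.1, R 4.3.3) over the 30 arrays, with group as its factor, gave every difference by lmFit and eBayes. It had 27 residual degrees of freedom and a prior of 3.97. Tests were two-sided, with Benjamini-Hochberg adjustment over all entries and a threshold of 0.05. SE are those of the fit, and intervals are 95%. The code was tested on simulated data. P-values measure the spread between mice, whose number limits the precision.

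Members were named with values if they passed the test, were among the 5 of smallest p in a comparison, or were carriers of ATP and phosphate (Slc25a3, Slc25a4, Slc25a5), of the malate-aspartate shuttle or of iron, haem and glutathione. From each pathway list, genes past the test and the 2 of smallest p in each comparison were named. Values of 1 member and 1 listed gene are not reported here, but both stay in the counts. The members and the 13 lists (137 symbols, 125 measured) were chosen with earlier results of these data known. A marker level is the mean log2 of a list's genes above 20 on at least 1 array. Slopes on marker levels were fitted with group and array set as terms. These slopes, the fits with a tendon or endothelial level and those without arrays with S100a8 above 100 were chosen after seeing the data. Array sets were parted where the ratio of 5′ to 3′ signal of the dap and thr control RNAs left its widest gap. Promoters are RefSeq's, for GRCm38.p6. Identity between the members' proteins was not analysed here. The labels number the replicates 1 to 10 in each group, and also give each of the 30 mice an identity of its own. Same-numbered arrays of different groups were not paired: their deviations correlated between -0.53 and 0.57, and at most 2 of 10 correlated best with their own number. Figures were drawn with matplotlib 3.10.9.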

Additional observations from a re-analysis of the deposited data

Results flagged for a closer look

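An array was listed here when it lay far from the other 9 of its group, by Dixon's test of the gap to its nearest neighbour over the range of the group at the 95% level. In all, 54 groups of values were checked and 5 stood out, and chance gives about 1 in 20. Slc25a39, the glutathione carrier, was 834.4 in LF day 56 replicate 9, with the nearest array at 751.2. Slc25a42, the coenzyme A carrier, was 82.1 in HF day 56 replicate 2, with the nearest at 56.4. Slc25a1, the citrate carrier, was 31 in LF day 56 replicate 6, with the nearest at 14. Ucp1, the uncoupling protein of brown fat, was 228.5 on the same array, with the nearest at 18.4, and the brown adipocyte marker level, which includes Ucp1, was 10.21 there. Ucp1 was also 7 in HF day 56 replicate 10, with the nearest at 4.6, both near background.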

How the results depend on the processing

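Slc25a28 kept its direction in 18 alternatives, between 0.37 and 0.43 (LF day 56 against LF day 0) and between 0.39 and 0.45 (HF day 56 against LF day 0), and passed in 16 of them for each. The members called were 0, 1 and 1 (diets, LF day 56 and HF day 56 against LF day 0) except in the smaller array set and without the arrays with S100a8 above 100 (0, 0 and 0), where fewer arrays were tested, and with the tendon level as a covariate (0, 1 and 2). There Slc25a37 joined: it turned to 0.759 and 0.641 against LF day 0 (adjusted p = 0.1 and 0.048, limma), and the cause was not tested. With the red cell precursor level as the covariate Slc25a37 differed by 0.03 and -0.05 and did not pass. With the replicate number as a block the members called were 0, 1 and 1, and Slc25a28 differed by 0.39 and 0.42. Leaving out 1 array gave 0 to 0, 1 to 1 and 1 to 2 members, and 2 to 15, 102 to 155 and 214 to 271 entries in all.

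Entries called between the diets (4) became 0 with only those groups, 8 with a trended robust prior, 7 with a pseudocount of 16, 8 with the filter on low entries, 1 with the replicate block, 0 in either array set, 13 with the slow fibre level, 2 with the tendon or the endothelial level and 0 without the arrays with S100a8 above 100. For LF day 56 against LF day 0 (140) they became 214 with the array set as a block, 47 and 11 in the larger and smaller set, 85 with the neutrophil level, 14 with tendon, 59 with endothelial and 13 without the arrays with S100a8 above 100. For HF day 56 against LF day 0 (262) they became 134 and 0 in the larger and smaller set, 87 with the adipocyte level and 6 without those arrays.

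Of 1056 values of 20 named members, 1040 kept their call and direction or moved by less than 1 within-group SD. Sign turned in 95. A turn of at least 1 SD in an uncalled difference occurred for Slc25a34 at LF day 56 (-0.355 in the smaller set, and -0.355 without the arrays with S100a8 above 100), Slc25a44 at LF day 56 (-0.057 with tendon, -0.073 with endothelial, -0.101 without those arrays) and Slc25a38 at LF day 56 (0.317 with endothelial). Without those arrays so did Slc25a54 (-0.007 at LF day 56, -0.152 at HF day 56), Slc25a4 (0.023) and Slc25a29 (-0.052), the last 2 at HF day 56. The cause was not tested. Of 1800 values with 1 array left out, 1799 kept their call, the other being Slc25a34 at HF day 56 against LF day 0 (0.61 without HF day 56 replicate 5). Signal near background limits 21 of the 43 members.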
